A study of Mus musculus with 18 samples.

Results

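The BCL2 family was followed through 10 of its genes: the pro-survival members Bcl2, Bcl2l1 (which encodes BCL-XL), Mcl1 and the A1 paralogs Bcl2a1a, Bcl2a1b and Bcl2a1d, and the pro-death members Bcl2l11 (BIM), Bbc3 (PUMA), Pmaip1 (NOXA) and Bmf. They were taken by symbol from the 23420 genes of each library, and all 10 were present and passed the filter on low values. Bulk RNA-seq was made from bead-purified splenic B cells of lupus-prone MRL/lpr (MRL.Faslpr) mice, in 18 libraries that formed 6 groups of 3. Cells of female Tlr7-/- mice carried either 1 intact Tlr9 allele (Tlr9+/- Tlr7-/-, called Tlr9het here) or a chimeric receptor in which the Tlr9 locus encodes the TLR7 signaling domain (Tlr997 Tlr7-/-), and were left unstimulated or given the TLR9 agonist CpG at 10 µg/ml. Cells of male Tlr9-/- mice carried the reverse chimera, the TLR9 signaling domain in the Tlr7 locus (Tlr779 Tlr9-/-), and were left unstimulated or given the TLR7 agonist CL097 at 5 µg/ml. All mice were 5 to 7 weeks old, all carried the lpr mutation of Fas, and all cells were cultured for 4 hours.

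Several features limit the groups as models. The chimeras are germline alleles at the endogenous loci, so the cells developed with them. The Tlr779 groups differ from the others in sex, in the deleted receptor and in the agonist, which cannot be told apart, so no test was made between the 2 arms. Tlr7WT Tlr9-/- libraries were not analysed here. The sample descriptions give the first genotype as Tlr9+/-, whereas the treatment text gives Tlr9-/-, and Tlr9 was at 7.28 to 7.48 log2 CPM in these unstimulated libraries. Tlr9 RNA was also at 7.17 to 7.33 log2 CPM in the unstimulated libraries labelled Tlr9-/-, so its gene-level value did not check that label. Tlr7 was at 2.68 to 4.28 log2 CPM in the Tlr9het libraries, at 4.81 to 5.36 in the Tlr997 libraries and at 6.61 to 7.82 in the Tlr779 libraries. The Tlr997 allele holds Tlr7 sequence for the signaling domain, and the part of that sequence in these values was not tested.

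BCL2 family proteins decide whether the outer mitochondrial membrane stays intact. Pro-survival members hold back the pore-forming proteins BAX and BAK, and the BH3-only members, which share a single short domain with the rest of the family, bind and neutralise the pro-survival proteins or activate the pore formers. In B cells BCL2, BCL-XL, MCL1 and A1 each support survival at different stages, while BIM is a main BH3-only protein in the removal of autoreactive and unstimulated cells.

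The 3 A1 paralogs need a caution that their sequences make plain. They lie on chromosome 9, and their coding sequences of 516 bases matched at 97.9% of positions between Bcl2a1a and Bcl2a1b, at 98.6% between Bcl2a1a and Bcl2a1d and at 98.8% between Bcl2a1b and Bcl2a1d (GENCODE M21 on GRCm38, the build the reads were aligned to). Only 12 coding positions differed among the 3 genes, and 7 of these fall in coding bases 1 to 120, which are shown 5′ to 3′ with the differing positions in capitals. The stretches lie in coding exons at chr9:88957051-88957170 (plus strand), chr9:89199360-89199479 (plus strand) and chr9:88731600-88731719 (minus strand), in the order printed.
Bcl2a1a: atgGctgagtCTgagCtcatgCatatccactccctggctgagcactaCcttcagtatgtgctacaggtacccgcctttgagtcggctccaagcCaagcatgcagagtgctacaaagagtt
Bcl2a1b: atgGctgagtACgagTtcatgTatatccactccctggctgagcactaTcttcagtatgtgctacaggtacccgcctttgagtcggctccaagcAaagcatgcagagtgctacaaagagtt
Bcl2a1d: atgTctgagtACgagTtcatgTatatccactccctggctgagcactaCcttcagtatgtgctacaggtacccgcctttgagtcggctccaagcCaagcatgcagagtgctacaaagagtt
Of all 75-base windows (the read length of the study) in the annotated transcripts, 55.2% for Bcl2a1a, 43.5% for Bcl2a1b and 67.6% for Bcl2a1d also occurred in another A1 gene, Bcl2a1c included. The study sequenced reads in pairs, and a pair can be told apart by either read. These shares therefore hold for single reads and are lower for pairs by an unknown amount. How shared reads were assigned is not given in the sources used here, so the split among the paralogs is uncertain and a summed value is given beside them. Other members lie at chr1:106538178-106714274 (Bcl2, minus strand), chr2:152780668-152831728 (Bcl2l1, minus), chr3:95658788-95663176 (Mcl1, plus), chr2:128126038-128162547 (Bcl2l11, plus), chr7:16308393-16318205 (Bbc3, plus) and chr2:118528757-118549687 (Bmf, minus). The exons of Bcl2a1b also overlap the predicted gene Gm29094 on the same strand, and those of Bcl2 overlap an antisense gene, D630008O14Rik, on the opposite strand. The fourth paralog, Bcl2a1c, was under 0 log2 CPM in every library and was not tested.

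The A1 genes also share sequence before their start sites, shown here as a description. The part of this sequence, or of shared reads, in the joint movement of the paralogs was not tested. The RefSeq promoter windows (GRCm38.p6) are given up to the first annotated GENCODE exon, at chr9:88956670-88956899 (plus strand), chr9:89199023-89199208 (plus strand) and chr9:88731915-88732100 (minus strand), with the longest run common to all 3, of 84 bases, in capitals.
Bcl2a1a: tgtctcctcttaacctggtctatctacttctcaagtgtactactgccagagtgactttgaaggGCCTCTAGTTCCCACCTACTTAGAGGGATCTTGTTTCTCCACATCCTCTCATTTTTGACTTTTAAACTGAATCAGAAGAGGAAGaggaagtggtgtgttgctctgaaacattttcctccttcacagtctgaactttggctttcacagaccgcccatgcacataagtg
Bcl2a1b: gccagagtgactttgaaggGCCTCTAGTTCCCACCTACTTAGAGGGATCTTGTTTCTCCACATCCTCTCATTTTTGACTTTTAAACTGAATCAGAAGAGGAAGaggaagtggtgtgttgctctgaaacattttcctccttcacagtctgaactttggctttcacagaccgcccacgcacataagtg
Bcl2a1d: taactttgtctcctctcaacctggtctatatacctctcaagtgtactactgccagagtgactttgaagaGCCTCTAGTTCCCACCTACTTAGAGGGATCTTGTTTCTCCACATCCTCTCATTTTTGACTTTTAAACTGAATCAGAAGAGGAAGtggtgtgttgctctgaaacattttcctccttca
In the 250 bases before the start, none of the A1 windows held the κB consensus or the FOXO motif GTAAACA on either strand. Among 16 windows of 9 members, the κB consensus was found in 2 (1 of 3 for Bcl2l1 and 1 of 3 for Bbc3) and the FOXO motif in 2 (1 of 2 for Bcl2l11 and 1 of 3 for Bbc3), against 7.25% and 3.17% of all 32851 promoter windows.

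The files held log2 CPM (read counts scaled to a common library total), so read depth is unknown and no counting interval can be given. Correlations between libraries of 1 group were 0.944 to 0.989 over 11676 genes, and no 2 libraries were identical. The labels give 3 mice per genotype but do not tie a library to a mouse, so p-values measure the spread between these libraries. The B cell identity was borne out by its markers, of which 8 of 8 were present, with a summed level of 6062 to 7810 CPM in the unstimulated libraries. This sum was 1958 to 2056 CPM in Tlr9het and 2945 to 3522 CPM in Tlr997 libraries with CpG, and 2809 to 3482 CPM with CL097. Marker sums of T cells (at most 31.6 CPM) and NK cells (at most 17.7 CPM) were low in every library, and erythroid markers summed to 12.3 to 484.4 CPM. Macrophage markers summed to 131.6 to 441 CPM without and 98.9 to 212.7 CPM with stimulus and were lower in each stimulated library than in the unstimulated one of the same number, and neutrophil markers (7 of 8 found) summed to 35.4 to 175.4 CPM without and 22.5 to 126.4 CPM with stimulus. The plasma cell marker sum went the other way, from 1082 to 1652 CPM without to 2111 to 2633 CPM with stimulus. This rise was in Irf4, which in Tlr9het libraries went from 9.55, 9.39 and 9.35 to 11.10, 10.97 and 11.03 log2 CPM with CpG. Sdc1, Igj and Xbp1 were lower in each stimulated library than in the unstimulated one of the same number, and Prdm1 was mixed. Plasmacytoid dendritic cell markers summed to 62.0 to 89.8 CPM without and 28.0 to 44.6 CPM with stimulus. Most of that sum was Pacsin1, at 5.82 to 6.35 log2 CPM without and 4.52 to 5.41 with stimulus. The part of these shifts in the members' responses was not tested. In bulk RNA, fewer cells of a type and less RNA per cell cannot be told apart.

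Stimulation shifted most of the family, and the larger part of the shift was a rise of pro-survival genes. With CpG in Tlr9het cells 9 of the 10 members passed the test, 7 higher and 2 lower, against 57.9% of the 11494 genes tested (29.7% higher and 28.2% lower). The count was 8 in Tlr997 cells, 6 higher and 2 lower, against 55.6% of genes (29.6% higher and 26.0% lower). With CL097 in Tlr779 cells all 10 passed, 8 higher and 2 lower, against 46.3% of 11082 genes (22.7% higher and 23.6% lower). To be called, a change had to exceed 0.5 log2 units in either direction and have a limma adjusted p below 0.05 (Benjamini-Hochberg, over all genes tested). The share of members called is read against a background that was itself high, and 3 of the higher calls in each stimulus were the near-identical A1 genes. The members' median log2 fold change was 2.76, 2.50 and 2.31 on the pro-survival side and 0.15, -0.10 and 0.54 on the pro-death side for CpG in Tlr9het, CpG in Tlr997 and CL097 in Tlr779, beside 0.04, 0.07 and -0.02 for all genes. The libraries with and without stimulus did not overlap for 9, 8 and 10 members, against 80.1%, 71.2% and 67.8% of all genes.

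**Figure D1:**
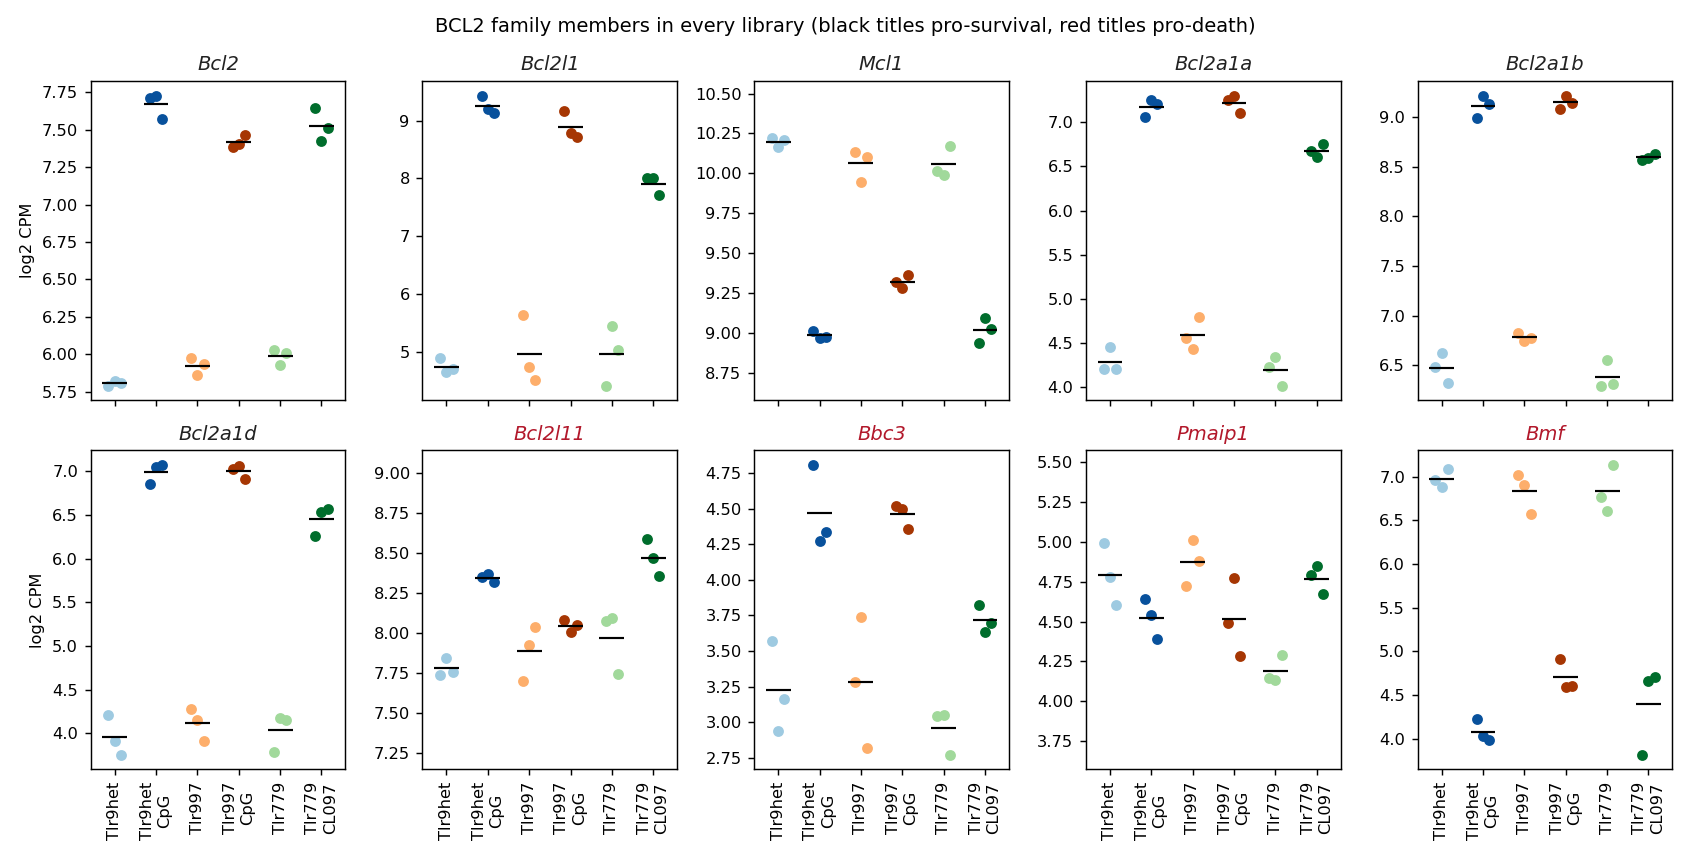
Log2 CPM of the 10 members in each of the 18 libraries, 1 panel per gene, each with its own vertical axis spanning at least 2 log2 units. Points are libraries, lines are group means (n = 3), and pale and dark points are unstimulated and stimulated cells. Bcl2, Bcl2l1 and the A1 genes were higher and Mcl1 and Bmf lower in every stimulated group, without overlap, while Pmaip1 libraries with and without CpG overlapped.

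Bcl2l1, whose product BCL-XL guards the mitochondrial membrane in activated lymphocytes, rose the most of the 10 in each stimulus. Its level was 4.88, 4.64 and 4.70 log2 CPM in the unstimulated Tlr9het libraries and 9.44, 9.2 and 9.13 with CpG. Tlr997 libraries were at 5.63, 4.73 and 4.52 without and 9.16, 8.79 and 8.72 with CpG. In Tlr779 cells it was at 4.41, 5.44 and 5.03 before and 8.01, 8.01 and 7.72 after CL097. Every stimulated library was above every unstimulated one of its genotype by more than 2 log2 units, and the largest spread was among unstimulated libraries. The log2 fold changes were 4.51 (SE 0.22, limma adjusted p = 5.43e-10), 3.93 (SE 0.22, adjusted p = 2.66e-09) and 2.95 (SE 0.23, adjusted p = 2.29e-05). In Tlr9het cells this took the mean from 26.8 to 613 CPM, and the change ranked 37th from the top of 11494 genes.

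Erythroid markers moved with the spread of unstimulated Bcl2l1. The highest unstimulated Bcl2l1 value of each genotype (4.88, 5.63 and 5.44 log2 CPM) was in the library with the highest erythroid marker sum of its group (161.5, 478.1 and 460.6 CPM), where the other libraries had 13.4 to 91.4 CPM. All 5 erythroid markers were in the files, and of these Hba-a1 was at the lowest value, -5.05 log2 CPM, in all 18 libraries. These sums were 12.3 to 257 CPM with CpG and 73.5 to 484.4 CPM with CL097, and their part in the Bcl2l1 result was not tested. Since that library was also the one of highest unstimulated Bcl2l1, leaving it out must raise the fold change (to 4.59, 4.26 and 3.19), which says nothing of the erythroid part.

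The A1 genes encode small pro-survival proteins that lymphocytes switch on after antigen receptor or TLR signals. Bcl2a1b, the most abundant of them per kb of exon, was at 6.48, 6.63 and 6.32 log2 CPM in unstimulated Tlr9het libraries and at 8.99, 9.22 and 9.13 with CpG. In Tlr997 libraries it was at 6.82, 6.74 and 6.78 and rose to 9.09, 9.22 and 9.14. With CL097 it went from 6.30, 6.55 and 6.32 to 8.57, 8.58 and 8.63. No stimulated library overlapped an unstimulated one. Bcl2a1a was at 4.01 to 4.79 log2 CPM without and 6.61 to 7.31 with stimulus over all genotypes, and Bcl2a1d was at 3.75 to 4.28 without and 6.25 to 7.07 with it. Across the 18 libraries the 3 genes had Pearson correlations of 0.988 to 0.998 with each other, a description in which shared reads have a part that was not tested. Their CPM summed to 125 in unstimulated and 827 in CpG-treated Tlr9het cells, and the log2 fold changes of the sum were 2.73 (SE 0.07, limma adjusted p = 4.14e-12) with CpG in Tlr9het, 2.48 (SE 0.07, adjusted p = 1.24e-11) in Tlr997 and 2.28 (SE 0.08, adjusted p = 2.03e-06) with CL097. Taken singly, the 3 paralogs rose by 2.64 to 3.03, 2.37 to 2.88 and 2.21 to 2.49 log2 units.

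Bcl2, the founding member and a survival factor of resting lymphocytes, rose by less. It was at 5.79, 5.83 and 5.81 log2 CPM in unstimulated Tlr9het libraries and at 7.71, 7.73 and 7.57 with CpG. The Tlr997 values were 5.97, 5.86 and 5.93 without and 7.38, 7.40 and 7.46 with CpG, and the Tlr779 values 6.03, 5.93 and 6.01 before and 7.64, 7.43 and 7.51 after CL097. Replicates were tight and the stimulated and unstimulated libraries lay far apart. The log2 fold changes were 1.86 (SE 0.06, limma adjusted p = 1.04e-11), 1.5 (SE 0.06, adjusted p = 8.35e-11) and 1.54 (SE 0.08, adjusted p = 4.71e-06).

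Mcl1 went the other way. Its product is a short-lived protein that B cells need at most stages, and its RNA was the most abundant of the 10 per kb of exon before stimulation. Unstimulated Tlr9het libraries had 10.22, 10.16 and 10.21 log2 CPM and CpG-treated ones 9.01, 8.97 and 8.98. Tlr997 cells went from 10.13, 9.95 and 10.11 to 9.32, 9.28 and 9.36, and Tlr779 cells from 10.02, 9.99 and 10.17 to 8.93, 9.09 and 9.02 with CL097. Stimulated libraries were lower without overlap in each genotype. Mcl1 fell by 1.21 (SE 0.05, limma adjusted p = 2.40e-10), by 0.74 (SE 0.05, adjusted p = 3.70e-08) and by 1.04 log2 units (SE 0.08, adjusted p = 1.67e-05), which in Tlr9het cells was a change of the mean from 1175 to 506 CPM. It was the only pro-survival member that fell.

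**Figure D2:**
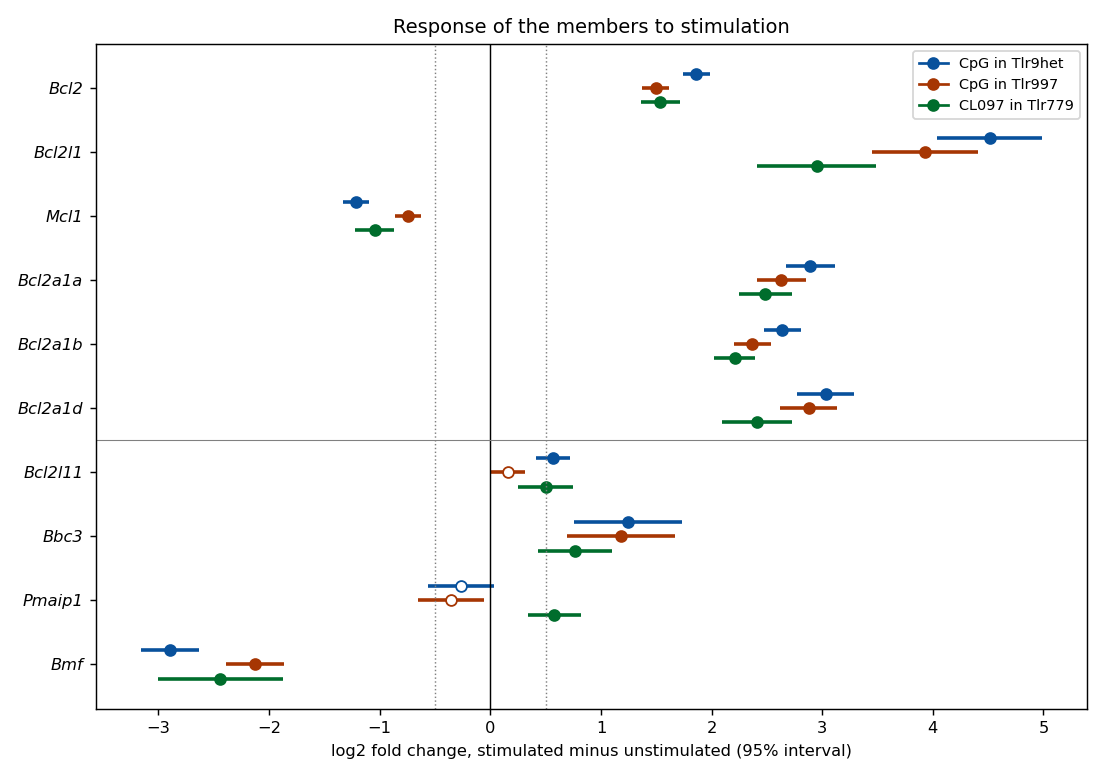
Log2 fold change of each member with CpG in Tlr9het, CpG in Tlr997 and CL097 in Tlr779 cells, stimulated minus unstimulated, with 95% intervals from limma. Filled points were called, open points were not, dotted lines mark the fold threshold of 0.5, and the horizontal line separates pro-survival (above) from pro-death members. Intervals of 5 pro-survival members lie wholly above 0 and those of Mcl1 and Bmf wholly below, while Pmaip1 lies on different sides of 0 for CpG and CL097.

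Among the pro-death genes, Bmf showed the largest change. It encodes a BH3-only protein that is held by the dynein light chain until it is released to bind pro-survival proteins. Unstimulated Tlr9het libraries had 6.96, 6.88 and 7.09 log2 CPM and those with CpG 4.22, 4.03 and 3.98. Tlr997 libraries had 7.02, 6.91 and 6.57 without and 4.91, 4.59 and 4.61 with CpG. In Tlr779 cells the values were 6.77, 6.61 and 7.13 before and 3.82, 4.66 and 4.71 after CL097. All stimulated libraries were lower than all unstimulated ones, and the first CL097 library lay apart from the other 2. Bmf fell by 2.90 (SE 0.12, limma adjusted p = 1.29e-10) with CpG in Tlr9het, by 2.13 (SE 0.12, adjusted p = 3.13e-09) in Tlr997 and by 2.44 log2 units (SE 0.24, adjusted p = 7.33e-05) with CL097. In Tlr9het cells the mean went from 126 to 16.9 CPM, rank 257 from the bottom of 11494 genes.

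Bbc3 and Bcl2l11, whose products PUMA and BIM can bind every main pro-survival protein, differed in how far they responded. Bbc3 rose in all 3 stimuli. It was at 3.57, 2.94 and 3.16 log2 CPM in unstimulated Tlr9het libraries and 4.81, 4.27 and 4.33 with CpG. Its Tlr997 values were 3.29, 3.74 and 2.82 without and 4.52, 4.50 and 4.36 with CpG, and its Tlr779 values 3.05, 3.05 and 2.77 before and 3.83, 3.64 and 3.70 after CL097. The groups did not overlap, although replicates were farther apart than for Bcl2. The log2 fold changes were 1.25 (SE 0.23, limma adjusted p = 0.00022), 1.18 (SE 0.23, adjusted p = 0.00036) and 0.77 (SE 0.14, adjusted p = 0.0021).

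Bcl2l11 was the most abundant pro-death member per kb of exon, and its changes were small. It was at 7.73, 7.85 and 7.75 log2 CPM without and 8.35, 8.37 and 8.32 with CpG in Tlr9het libraries, a rise of 0.57 (SE 0.07, limma adjusted p = 8.49e-06). In Tlr997 libraries it was at 7.70, 7.93 and 8.04 without and 8.08, 8.01 and 8.05 with CpG. These groups overlapped, and the difference of 0.16 (95% interval -0.0001 to 0.31, adjusted p = 0.068) was not called. With CL097 it was at 8.59, 8.47 and 8.36 against 8.07, 8.10 and 7.74 before, and its log2 fold change of 0.50 (SE 0.11, adjusted p = 0.0043) lay at the fold threshold. Without replicate 3 of the unstimulated Tlr779 libraries this value was 0.39, without replicate 1 of the CL097 libraries 0.44 and with library weights 0.49, and in each of these it was not called.

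Pmaip1, which encodes a BH3-only protein that mainly engages MCL1 and A1, did not pass the test with CpG. Its values were 4.99, 4.78 and 4.60 log2 CPM without and 4.64, 4.54 and 4.39 with CpG in Tlr9het libraries, a log2 difference of -0.27 (95% interval -0.57 to 0.03, limma adjusted p = 0.095). In Tlr997 libraries they were 4.72, 5.01 and 4.88 without and 4.49, 4.77 and 4.28 with CpG, a difference of -0.36 (interval -0.66 to -0.06, adjusted p = 0.032) that was under the fold threshold. Libraries overlapped in both genotypes. In Tlr779 cells Pmaip1 rose, from 4.15, 4.13 and 4.29 to 4.79, 4.85 and 4.67 with CL097, by 0.58 (SE 0.10, adjusted p = 0.0015) and without overlap. A difference between the agonists was not tested, and sex, genotype and agonist cannot be told apart there.

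Levels of different genes can be compared only per length, and CPM were therefore divided by the union of annotated exons in kilobases. Before stimulation Mcl1 stood first in all 3 genotypes, at 344, 313 and 313 CPM per kb in Tlr9het, Tlr997 and Tlr779 cells, and Bcl2a1b second at 109, 135 and 103. Bcl2l11 came next at 27.4, 29.7 and 31.4 CPM per kb, and Bbc3 last at 4.47, 4.73 and 3.67. Other places were less certain. For example, Bmf and Bcl2a1a overlapped in Tlr9het and Tlr779 libraries, Bcl2l11 and Bcl2a1a in Tlr997 libraries, Bcl2l1 and Bcl2 in all 3 genotypes, and Bcl2l1 and the last-placed Bbc3 in Tlr9het libraries. After stimulation Bcl2a1b stood first, at 679, 695 and 474 CPM per kb, and Bmf last, at 3.23, 4.99 and 4.16. Second and next came Bcl2a1a (177 CPM per kb) and Mcl1 (148) in Tlr9het cells with CpG, whereas in Tlr997 cells Mcl1 (187 CPM per kb) and Bcl2a1a (183) overlapped and in Tlr779 cells Mcl1 (152) stood above Bcl2a1a (125).

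The make-up of the pro-survival side turned over. Mcl1 was 67.8%, 61.2% and 66.4% of the summed pro-survival CPM per kb in unstimulated Tlr9het, Tlr997 and Tlr779 cells, and 11.3%, 14% and 16.4% after stimulation. The A1 genes together went from 29.8%, 36.1% and 30.7% to 76.7%, 76.8% and 75.7%. Bcl2l1 rose from 1.15% to 10.3% in Tlr9het cells and was 7.80% and 5.71% of the side in stimulated Tlr997 and Tlr779 cells, while Bcl2 stayed at or under 2.18% in every group. On the pro-death side Bmf went from 36.3%, 32.6% and 34.5% to 5.13%, 8.78% and 6.48%, and Bcl2l11 from 41.4%, 44.3% and 49.3% to 64.7%, 58.1% and 68.5%. These shares describe RNA, not protein, and the A1 share carries the uncertainty of the shared reads.

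**Figure D3:**
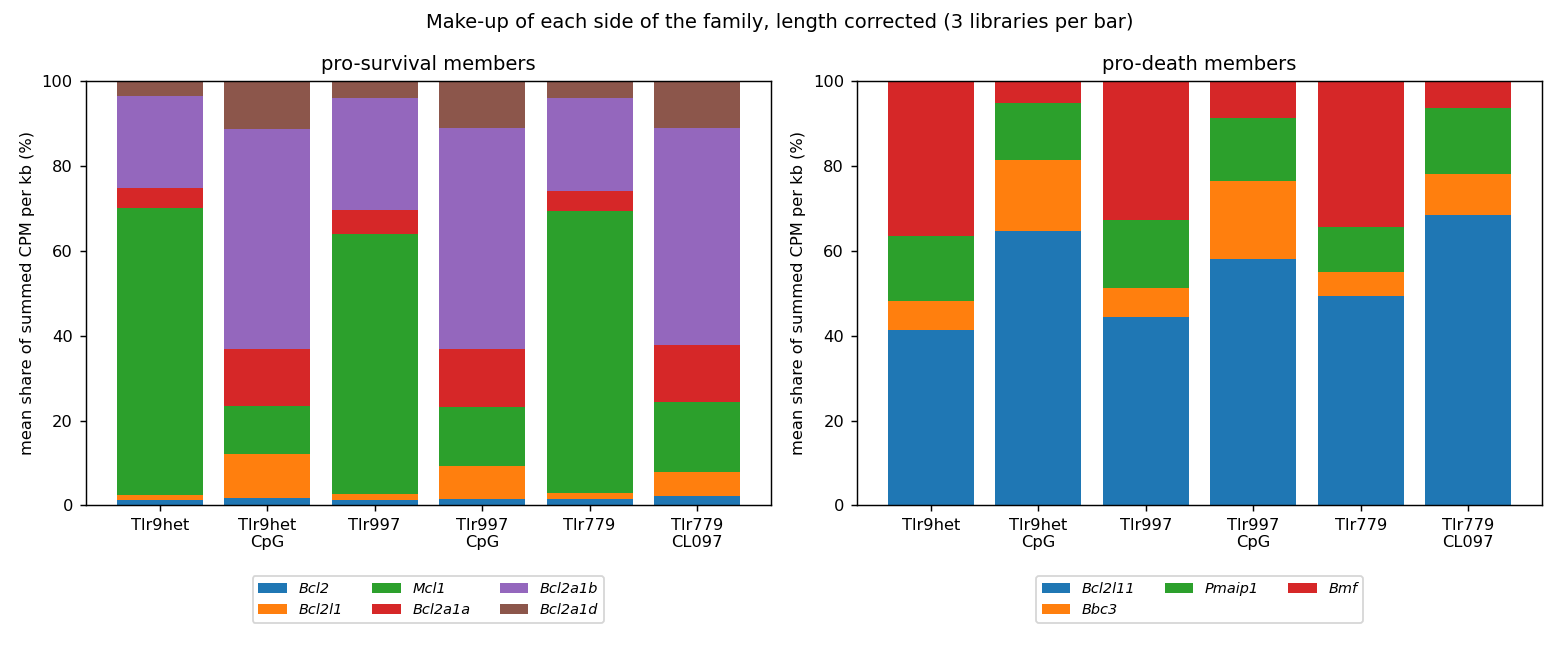
Mean share of each gene in the summed CPM per kb of the pro-survival members (left) and the pro-death members (right), in percent, as stacked bars over 3 libraries per group. Mcl1 was over 60% of the pro-survival side in the unstimulated groups and at most 16.4% after stimulation, when the A1 genes made up over 75%, and Bmf shrank on the pro-death side.

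The mean of the pro-survival members was set against the mean of the pro-death members in each library. The difference of the 2 means in log2 CPM was 0.15, 0.33 and 0.18 in unstimulated Tlr9het libraries and 2.67, 2.93 and 2.92 with CpG. It was 0.55, 0.08 and 0.43 in unstimulated Tlr997 libraries and 2.70, 2.71 and 2.79 with CpG, and went from 0.29, 0.60 and 0.47 to 2.43, 2.30 and 2.34 in Tlr779 cells with CL097. These values move between libraries but their level is not a ratio of the sides, because log2 CPM does not allow for gene length. With CPM per kb summed over each side, the pro-survival side was already ahead by 2.94, 2.93 and 2.88 log2 units in unstimulated Tlr9het, Tlr997 and Tlr779 cells (group means, SD 0.039 to 0.161, n = 3). The changes in the difference of means were 2.62, 2.38 and 1.91 log2 units, with a pooled SD between libraries of 0.12, 0.18 and 0.12. Most of it came from the pro-survival mean, which went from 5.91 to 8.20, 6.07 to 8.17 and 5.94 to 7.70 log2 CPM, while the pro-death mean went from 5.69 to 5.36, 5.72 to 5.43 and 5.49 to 5.34. The 3 A1 genes enter as 3 members, and with their sum as 1 member the changes were 2.31, 2.08 and 1.58. With CPM per kb summed over each side they were 1.44, 1.63 and 0.96, and on that scale the change was larger in Tlr997 than in Tlr9het cells. No test was made on these values, since the members were chosen as a set.

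**Figure D4:**
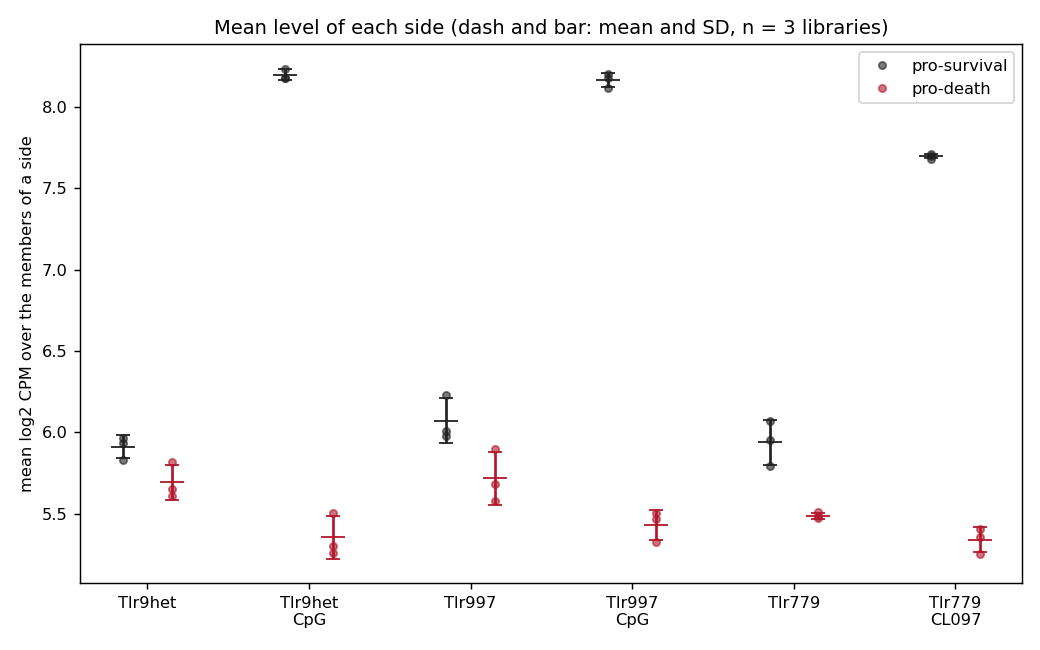
Mean log2 CPM over the 6 pro-survival (black) and 4 pro-death (red) members in each library, by group. Points are libraries, and dashes and bars are the mean and SD (n = 3). The pro-survival mean is higher in every stimulated library than in every unstimulated one, while the pro-death mean moves less. The distance between black and red points is not corrected for gene length.

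Whether the signaling domain of the receptor changed the family was asked by comparing Tlr997 with Tlr9het cells. Without stimulus no member was called, against 0.0174% of genes (2 of 11494), and 3 members had an unadjusted p under 0.05, as did 10.8% of all genes (1237). These were Bcl2a1b (0.30 higher in Tlr997, limma adjusted p = 0.30), Bcl2a1a (0.31 higher, adjusted p = 0.35) and Mcl1 (-0.14, adjusted p = 0.42). Libraries of the 2 genotypes did not overlap for Bcl2, Bcl2a1b and Mcl1, against 13.6% of genes.

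With CpG, Bmf was the only member called, and it was higher in Tlr997 cells (4.91, 4.59 and 4.61 against 4.22, 4.03 and 3.98 log2 CPM). The difference was 0.62 log2 units (SE 0.12, limma adjusted p = 0.0092), against a background of 2.72% of genes called. Bmf was lost from the calls without the filter on low values (adjusted p = 0.070) and with all 18 libraries in 1 model (adjusted p = 0.086). Mcl1 was also higher in Tlr997 cells, by 0.34 (SE 0.05, adjusted p = 0.0028), and Bcl2 and Bcl2l11 were lower, at -0.25 (SE 0.06, adjusted p = 0.020) and -0.30 (SE 0.07, adjusted p = 0.028). These 3 passed the p threshold but not the fold threshold, and 5.92% of all genes passed that p threshold alone. Libraries of the 2 genotypes did not overlap for these 4 members, against 30.0% of all genes. For the A1 genes the differences were 0.01 to 0.05, with the sum at 0.03 (95% interval -0.13 to 0.19), and for Bcl2l1 the difference was -0.37 (interval -0.84 to 0.11, adjusted p = 0.41).

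The CpG responses themselves were compared by the interaction of genotype and stimulus. Bmf was again the only member called, its fall being smaller in Tlr997 cells by 0.77 log2 units (SE 0.17, limma adjusted p = 0.039; 1.54% of genes were called). This call was near its threshold, since leaving out any of 9 of the 12 libraries ended it (adjusted p 0.051 to 0.11); it held without replicate 1 or 3 of the unstimulated Tlr997 libraries or replicate 2 of those with CpG. The fall of Mcl1 was also smaller in Tlr997 cells, by 0.47 (SE 0.08, adjusted p = 0.0072), and the rise of Bcl2 was smaller, with a difference of -0.37 (SE 0.08, adjusted p = 0.038), both under the fold threshold (2.08% of all genes passed the p threshold alone). Bcl2l11 (-0.41, adjusted p = 0.059) and Bcl2l1 (-0.59, adjusted p = 0.38) did not pass. With the replicate block within genotype the count was 2, since Bcl2l1 was called as well (-0.59, adjusted p = 0.044). Without replicate 1 of the unstimulated Tlr997 libraries, the one with the highest erythroid sum of the arm, the Bcl2l1 difference was -0.25 in the fit without the block. The fitted CpG response was smaller in size in Tlr997 cells for 9 of the 10 members, against 59.5% of all genes (6839 of 11494), with Pmaip1 the exception. The members are not independent, and the 9 include the 3 A1 genes, which share reads. Between the genotypes the A1 genes differed by 0.01 to 0.05 with CpG and by 0.16 to 0.31 without stimulus. The Bbc3 responses differed by -0.07, with a sign that changed when some single libraries were left out.

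Other measures also differed between these genotypes. The B cell marker sum with CpG was 1958 to 2056 CPM in Tlr9het and 2945 to 3522 CPM in Tlr997 libraries, against 6062 to 6934 CPM in both without stimulus. Tlr9 itself was at 7.93 to 8.08 log2 CPM in Tlr9het and 7.18 to 7.56 in Tlr997 libraries with CpG. It was already apart without stimulus, with means of 7.37 and 7.04 and no overlap. Tlr997 is an altered Tlr9 allele, so the gene-level values are not of the same transcript, and the study reports equal TLR9 protein in B cells of these genotypes. The part of these measures in the Bmf, Mcl1 and Bcl2 differences was not tested.

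**Figure D5:**
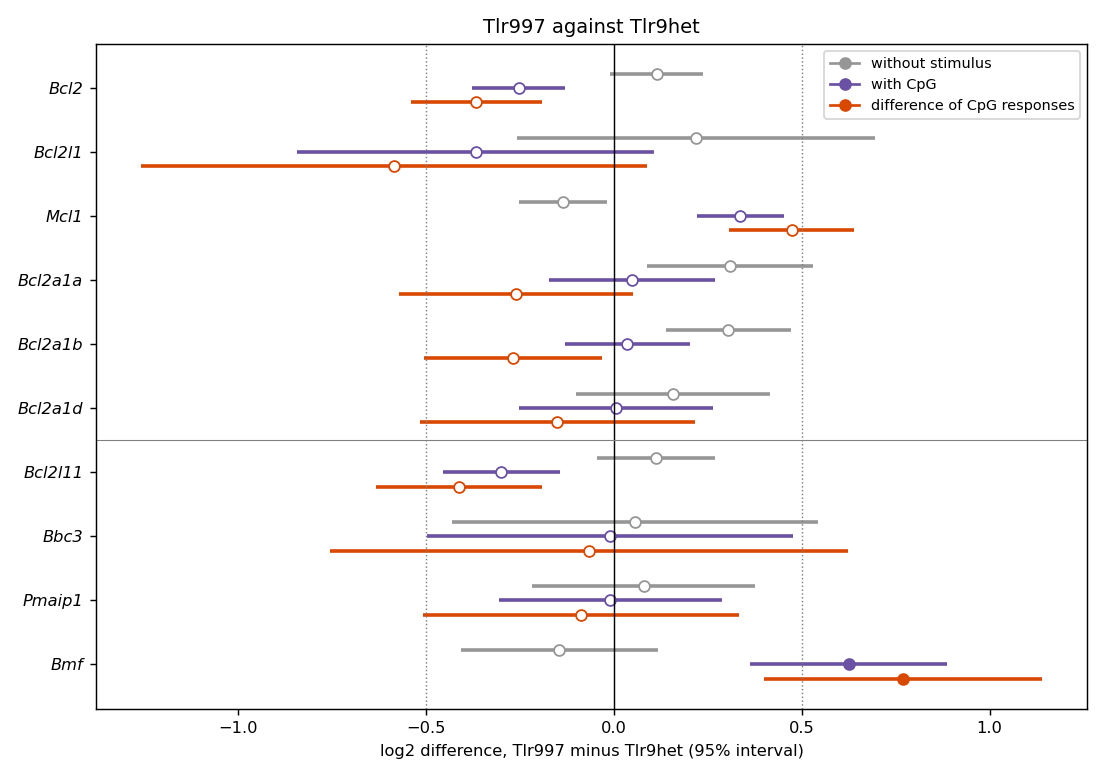
Log2 difference of each member between Tlr997 and Tlr9het cells without stimulus (grey) and with CpG (purple), and the difference of the CpG responses (orange), with 95% intervals from limma. Filled points were called, open points were not, and dotted lines mark the fold threshold of 0.5. Only Bmf has filled points, at 0.62 with CpG and 0.77 for the difference of responses.

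The rest of the apoptosis pathway was read from 52 genes in 8 lists, of which 46 were tested in the Tlr7-/- arm and 45 in the Tlr779 arm. With CpG 10 of them rose and 14 fell in Tlr9het cells, 11 rose and 13 fell in Tlr997 cells, and with CL097 9 rose and 10 fell. Among all genes tested 57.9%, 55.6% and 46.3% were called, so these lists held no more calls than the genes at large. The median log2 fold change over these genes was -0.04, -0.09 and -0.03, close to that of all genes.

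Of the pore formers that the members control, Bax rose, by 0.88, 0.69 and 0.56 log2 units with CpG in Tlr9het, CpG in Tlr997 and CL097 in Tlr779, while Bak1 (-0.04, -0.06 and 0.14) was not called. Among the 9 genes of caspase activation, 5 fell with CpG in each genotype and 3 with CL097, while 2 rose with CpG in Tlr9het, 3 with CpG in Tlr997 and 1 with CL097 (28.2%, 26.0% and 23.6% of all genes fell and 29.7%, 29.6% and 22.7% rose). Casp9, the initiator caspase downstream of the mitochondrion, fell by 2.58, 2.65 and 2.89 log2 units, its scaffold Apaf1 fell by 1.06, 1.14 and 0.80, and Casp6 fell by 1.05, 1.32 and 1.46. Cycs, which encodes the cytochrome c that assembles with APAF1, rose by 1.90, 1.49 and 1.32. Diablo, whose product counters caspase inhibitors, rose with CpG by 0.65 and 0.59 and was not called with CL097 (0.35), and the protease gene Htra2 was called with CpG in Tlr997 (0.65) but not in the other 2 comparisons (0.31 and 0.44). These 2 genes were named after their values were seen. Among the other BH3-only and BCL2-like genes Bad fell by 1.39, 1.14 and 1.25, Bnip3 by 1.53, 1.12 and 2.02 and Bnip3l by 1.29, 1.26 and 1.26. Bcl2l12 fell with CpG by 1.29 and 0.68 and was not called with CL097 (-0.34). Bid went the other way, by 0.87 and 1.11 with CpG, and was not called with CL097 (0.21). Bcl2l14 was called higher with CpG in Tlr997 (1.32) but not in Tlr9het (0.52). Bid and Bcl2l14 were also named after their values were seen.

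Outside the mitochondrial steps, Cflar, an inhibitor of caspase-8, rose by 2.47, 2.18 and 2.24 log2 units, and the death receptor gene Fas by 1.89, 2.16 and 1.72 in these lpr cells. Cflar did not stand for its list of 6 caspase inhibitors. Of these, 1 rose and 3 fell with CpG in Tlr9het, 1 rose and 2 fell in Tlr997, and 2 rose and 0 fell with CL097. Among all genes tested 29.7%, 29.6% and 22.7% rose and 28.2%, 26.0% and 23.6% fell. Regulators of the members also moved, with Myc up by 2.77, 2.39 and 2.56, Nfkb1 up by 1.82, 1.66 and 1.52, and Foxo3, a forkhead factor known to drive Bcl2l11 and Bbc3, lower at -2.21, -2.33 and -0.69. Between the genotypes with CpG, Foxo1 (-0.56, limma adjusted p = 0.00044) and Fbxw7 (-0.78, adjusted p = 0.00015), which encodes part of a ubiquitin ligase that targets MCL1, were lower in Tlr997 cells and Bcl2l12 (0.60, adjusted p = 0.047) was higher. The interaction was called for Birc2 (0.62), Foxo1 (-0.57) and Fbxw7 (-0.60). The CpG responses in Tlr9het and Tlr997 were -0.63 and -0.01 for Birc2, -0.04 and -0.615 for Foxo1, and 0.91 and 0.31 for Fbxw7. Without stimulus none of the 46 was called.

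Finally, the genes whose log2 CPM ran most closely with each member over the 18 libraries were sought among 11666 genes, as a description in which the points share stimulus and normalization. Bcl2a1b ran with Wdr12 and Nup54 (Pearson r = 0.996 for both), Bcl2a1d with Ranbp1 (r = 0.997), Bcl2 with D8Ertd82e (r = 0.995) and Bcl2l1 with U2af1 and Timm23 (r = 0.992 for both). Mcl1 ran with Cables2 (r = 0.992) and Bmf with Mknk2 (r = 0.99), and the 2 members followed each other at r = 0.983. No gene ran as closely with Pmaip1 (r at most 0.727, reached by Arih2), and its correlation with the other members lay between -0.105 and 0.047.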

How the data were processed

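RNA-seq was performed on 18 libraries of MRL/lpr splenic B cells. The authors trimmed reads (Trim Galore 0.6.5, FastQC 0.11.7), aligned them to mm10 with STAR 2.6.1a, counted genes with featureCounts (Subread 2.0.1) and quantile normalized with voom in limma, per the study's methods and the submitters' processing notes; they deposited log2 CPM per gene. The CPM of a library summed to 991992 to 1004412. Of 6614 genes under -4 log2 CPM in all 12 Tlr7-/- libraries, 6306 had 1 value per replicate number and 822 differed between the numbers, a pattern whose processing step is not given in the sources used here. A stranded kit was used, but the strand setting of the counting is not given. MRL reads were compared here with annotation of the C57BL/6J reference.

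The deposited log2 values were tested with limma 3.58.1 (R 4.3.3; eBayes with a trend in the variance), the 12 Tlr7-/- libraries in 1 model and the 6 Tlr779 libraries in another, on genes over 0 log2 CPM in at least 3 fitted libraries. Calls needed a Benjamini-Hochberg adjusted p below 0.05 and a change of more than 0.5 log2 units. The fit was tried on simulated data with independent noise in each library. Libraries of the same number that deviate together were not simulated, so that trial cannot vouch for the p-values given here. The members and the wider lists were chosen with earlier results of these data known. All 10 members were named; of the wider lists, genes called the same way with all 3 stimuli, or called between the genotypes with CpG or in the interaction, were named, and for each member the 2 genes of highest correlation could be. Per-kb values used the union of GENCODE M21 exons. Same-numbered libraries deviated together in Tlr9het (r = 0.27 to 0.524) and Tlr779 (r = 0.219 to 0.413), while in Tlr997 r was 0.036 to 0.394. A shared mouse, batch or processing step per number cannot be told apart here. The main fits used no block, so their p-values leave out any pairing. Alternatives varied the filter, the variance model, the fitted libraries, the block, the scaling, the pseudocount, the fold threshold, library weights and each library in turn.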

Additional observations from a re-analysis of the deposited data

Results flagged for a closer look

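In the interaction test of the CpG responses of Tlr997 and Tlr9het cells, Bmf was the only member called, with a difference of 0.77 log2 units (limma adjusted p = 0.039). The call was lost without the filter on low values (adjusted p = 0.167), without a trend in the variance (0.101) and with all 18 libraries (0.194). Mcl1 (0.47, adjusted p = 0.0072) and Bcl2 (-0.37, adjusted p = 0.038) passed the p threshold, as did 2.08% of all genes, but not the fold threshold of 0.5. Among the other pathway genes the interaction was called for Birc2 (0.62), Foxo1 (-0.57) and Fbxw7 (-0.60), an inhibitor of apoptosis, a forkhead factor and a ubiquitin ligase subunit. With CpG, Birc2 was called lower only in Tlr9het cells and Foxo1 only in Tlr997 cells, and the rise of Fbxw7 was smaller in Tlr997 cells.

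In numbered pairs of libraries, Pmaip1 was lower with CpG in every Tlr9het pair (mean -0.27 log2 units) and higher with CL097 in every Tlr779 pair (mean 0.58). Tnfrsf10b, a death receptor gene chosen for naming after its values were seen, was lower with CpG in all 3 Tlr9het pairs (mean -1.15) and higher with CL097 in all 3 Tlr779 pairs (mean 1.48). In Tlr997 cells, which also received CpG, it was lower in 2 of 3 pairs, from 1.83 to 0.25 and 1.23 to 0.80 log2 CPM, and higher in the other, from -0.25 to 0.98, and it was not called (-0.26, adjusted p = 0.63). Neither difference between the stimuli was tested, and agonist, sex and genotype cannot be told apart. Groups of 3 libraries were too small for a test of single outlying libraries.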

How the results depend on the processing

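The counts of members called with CpG in Tlr9het (9), CpG in Tlr997 (8), CL097 in Tlr779 (10) and between the unstimulated genotypes (0) stayed within 1.5 times under every alternative run, the fold threshold of 1 included. With each library left out in turn they were 9 to 9, 8 to 8, 9 to 10 and 0 to 0, and the replicate block gave 9, 8, 10 and 0. Genotype calls with CpG were less stable. The single member called, Bmf, became 0 without the filter on low values, with all 18 libraries in 1 model and at a fold threshold of 1, and 4 members were called with no fold threshold; leaving out each library gave 1 to 1. For the difference of CpG responses (1, Bmf) the count was 0 without the filter (Bmf adjusted p = 0.167), without a trend in the variance (0.101), with all 18 libraries (0.194) and at a fold threshold of 1, 3 with no fold threshold, 2 with library weights (Mcl1 added, 0.52), 2 with the replicate block within genotype and 1 with the additive replicate block, and 0 to 3 with each library left out, Mcl1 (0.51) and Bcl2l11 (-0.51) being called without the first unstimulated Tlr997 library. The cause was not tested. The change in survival minus death balance with CpG in Tlr9het, CpG in Tlr997 and CL097 in Tlr779 (2.62, 2.38 and 1.91) was 2.31, 2.08 and 1.58 with the A1 paralogs summed, 4.44, 3.88 and 3.17 for medians and 1.44, 1.63 and 0.96 for summed CPM per kb, and ranged over 2.58 to 2.71, 2.24 to 2.48 and 1.82 to 1.98 with each library left out. No called member changed sign; 21 values of members not called did, all in genotype comparisons. Read depth is unknown, so what it limits could not be assessed.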
